A study of Homo sapiens with 18 samples.

Results

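LIN28A and LIN28B, their let-7 targets among the IGF2BP and HMGA genes, and TRIM71 were followed through ERK5 silencing in human neuroblastoma cells. They were taken by symbol from a list of the pathway, and make up 8 of the 17687 gene symbols named on the arrays. Each had 1 probe bearing its symbol alone among the 21448 probes measured. Of these, 8 of 8 had a mean signal above 3.93, the 25th percentile of all probe means. LIN28A, IGF2BP1, IGF2BP2 and HMGA2 lay close to that bound, with means over all arrays of 4.46, 4.10, 4.64 and 4.10 on the log2 scale. Their means on the SK-N-BE(2) control arrays, 3.71, 3.74, 3.34 and 3.68, were below it. Among the probe means of that group alone they stood at percentiles 27.1, 27.5, 19 and 26.4, respectively.

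Total RNA was measured on 18 whole-transcript arrays, 3 in each of 6 groups. The cells were SK-N-BE(2), a line with amplified MYCN, and CHLA-90, a neuroblastoma line without that amplification. Cells seeded at 250000 per well received lentivirus made in HEK-293T cells with the pLKO vector. It encoded shNSC, the control hairpin, or shERK5-4 or shERK5-5, both short hairpin RNAs against ERK5, a mitogen-activated protein kinase whose gene is MAPK7. All groups, the controls included, were therefore transduced, and RNA was taken 72 hours later in what the labels call biological triplicates. Each line stands for a single tumour, and the labels do not say whether the 3 replicates were transduced apart. The p-values measure the spread between these arrays.

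LIN28A and LIN28B are RNA-binding proteins that hold back the let-7 family of microRNAs. They bind the terminal loop of let-7 precursors through a cold-shock domain and zinc knuckles, and the zinc knuckles recognise the letters GGAG. LIN28A then recruits the uridylyltransferases TUT4 and TUT7, and the exonuclease DIS3L2 degrades the tailed precursor. Mature let-7 pairs through its seed with messenger RNAs, HMGA2, IGF2BP1, LIN28B itself and MYCN among them, and represses them. In neuroblastoma LIN28B is known as an oncogene linked to MYCN.

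The mature sequences below are shown because the members that are let-7 targets are recognised through their seed. The capitals mark bases 2 to 8, counted from the 5′ end. All 9 mature let-7 and miR-98 sequences of the 5p arm in RefSeq (GRCh38.p14) share this seed, GAGGUAG, and 4 of them are given.
hsa-let-7a-5p: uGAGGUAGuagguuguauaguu
hsa-let-7d-5p: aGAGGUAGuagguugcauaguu
hsa-let-7g-5p: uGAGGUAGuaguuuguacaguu
hsa-miR-98-5p: uGAGGUAGuaaguuguauuguu

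The precursors below are shown because they carry, or lack, the letters that LIN28 zinc knuckles recognise. GGAG was searched on the transcribed strand after the 5p arm, and capitals mark a match. It was present in 9 of the 12 let-7 and miR-98 precursors (75%), and in 151 of 798 precursors with a 5p arm in RefSeq (18.9%). MIRLET7G (chr3:52268278-52268361, minus strand) held it, whereas MIRLET7A3 (chr22:46112749-46112822, plus strand), MIRLET7B and MIR98 did not.
MIRLET7G: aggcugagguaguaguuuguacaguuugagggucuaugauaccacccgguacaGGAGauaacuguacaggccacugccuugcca
MIRLET7A3: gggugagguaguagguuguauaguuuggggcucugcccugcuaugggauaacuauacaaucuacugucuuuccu
A match is a description of the letters and not a binding site. The arrays measured neither mature let-7 nor its precursors under these names, so let-7 itself is not analysed here.

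All values are log2 signals, and changes were tested with limma over all 18 arrays, a moderated linear model. A gene rose or fell where its p, adjusted by the Benjamini-Hochberg method for all 21448 probes of a comparison, was under 0.05. MAPK7 (probe TC1700007170.hg.1) stood in SK-N-BE(2) at 61.8% (shERK5-4) and 64.3% (shERK5-5) of the shNSC level, with limma adjusted p-values of 0.0103 and 0.0319. It stood at 47.7% and 50.5% in CHLA-90, with limma adjusted p-values of 0.000329 and 0.00139. An exact permutation test (two-sided, 6 hairpin against 3 control arrays) gave p = 0.0238 in each line, the smallest that 84 assignments allow. In SK-N-BE(2) without shNSC replicate 1 the limma adjusted p-values were 0.061 and 0.149. The call with shERK5-5 there was also lost without shNSC replicate 3 (adjusted p = 0.11) or shERK5-5 replicate 1 or 2 (0.0833 and 0.123). Median log2 signals ran from 5.63 to 5.69 on the SK-N-BE(2) arrays and from 6.35 to 6.43 on those of CHLA-90, so levels of the lines carry an offset. Precision rests on the number of arrays, since a signal has no depth.

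Markers of the neuroblastoma cell state moved with shERK5-4. Of 7 measured adrenergic markers, 4 fell and 0 rose with shERK5-4 in SK-N-BE(2), where 11.7% of all probes fell and 12.2% rose, and 5 fell and 0 rose in CHLA-90, against 8.25% and 10%. With shERK5-5 0 fell and 1 rose in SK-N-BE(2), against 6.07% and 6.76%, and 1 fell and 0 rose in CHLA-90, against 6.84% and 5.85%. Their mean log2 signal per array was 10.3 to 10.6 with shNSC, 9.10 to 9.61 with shERK5-4 and 10.5 to 10.7 with shERK5-5 in SK-N-BE(2). In CHLA-90 it was 12.8 to 13.2, 10.5 to 10.9 and 12.6 to 13.0. The 6 measured fibroblast markers averaged 9.49 to 9.55, 8.81 to 9.03 and 10.2 to 10.4 in SK-N-BE(2), in the same order of groups, and 7.79 to 7.83, 7.28 to 7.52 and 7.92 to 8.27 in CHLA-90. Of the fibroblast markers 1 rose and 3 fell with shERK5-4 in SK-N-BE(2), and 3 rose and 0 fell with shERK5-5. In CHLA-90 0 rose and 2 fell with shERK5-4, and 1 rose and 0 fell with shERK5-5. The same shares of all probes apply to these and to the 7 mesenchymal markers. Of the mesenchymal markers 0 rose and 1 fell with each hairpin in SK-N-BE(2). In CHLA-90 3 of them rose and 2 fell with shERK5-4, and 0 rose and 2 fell with shERK5-5. The 3 Schwann cell markers averaged 4.07 to 4.85 over all arrays. S100B, named after its values were seen, was the 1 gene called (0.66 with shERK5-4 in SK-N-BE(2), limma adjusted p = 0.0148). The 4 blood cell markers averaged 5.03 to 5.32 with shNSC and 4.47 to 4.63 with shERK5-4 in SK-N-BE(2), and 4.28 to 5.00 in CHLA-90. Among them PTPRC had a mean of 7.90 in SK-N-BE(2) with shNSC and fell by 1.95 with shERK5-4 (limma adjusted p = 1.19e-08). The part of these shifts in any value of the 8 genes was not tested. In bulk RNA, fewer cells of a type and less RNA per cell cannot be told apart.

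LIN28B, the paralog expressed in many neuroblastomas, was higher with both ERK5 hairpins in SK-N-BE(2) and with shERK5-4 in CHLA-90. In SK-N-BE(2) its log2 signal (probe TC0600008955.hg.1) was 9.01, 9.17 and 9.23 on the shNSC arrays, 10.84, 10.22 and 10.16 with shERK5-4, and 10.01, 10.35 and 10.06 with shERK5-5. Every hairpin array of that line was above every control array. In CHLA-90 the shNSC arrays read 7.62, 7.81 and 7.28, the shERK5-4 arrays 8.80, 9.43 and 8.89, and the shERK5-5 arrays 7.50, 8.19 and 7.84. The shERK5-4 arrays of CHLA-90 were all above the others of the line, while the shERK5-5 arrays overlapped the controls.

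LIN28B was 2.41-fold higher with shERK5-4 in SK-N-BE(2), a log2 change of 1.27 ± 0.22 (SE, n = 3 per group, limma adjusted p = 0.000114). With shERK5-5 it was 2.00-fold higher, at 1.00 ± 0.22 (limma adjusted p = 0.00267). In CHLA-90 it was 2.77-fold higher with shERK5-4, at 1.47 ± 0.22 (limma adjusted p = 3.31e-05). The change with shERK5-5 in CHLA-90 was 0.27, with a 95% confidence interval from -0.182 to 0.728, and did not pass the threshold (limma adjusted p = 0.475). The 3 calls held in every alternative tried, and the remaining contrast was called in none of them.

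Over both hairpins, LIN28B rose by 1.14 ± 0.19 on the log2 scale in SK-N-BE(2) (2.20-fold, limma adjusted p = 0.000131) and by 0.87 ± 0.19 in CHLA-90 (1.83-fold, limma adjusted p = 0.00298). The exact permutation test of 6 hairpin against 3 control arrays gave p = 0.0238 in SK-N-BE(2), the smallest possible, and p = 0.0952 in CHLA-90. Without replicate 1 of shERK5-5 the exact p in CHLA-90 was 0.0357, within a range of 0.0357 to 0.286 over all single omissions of that line. LIN28B was the 1 member of the 8 called in the same direction with both hairpins in SK-N-BE(2), where 5.21% of all probes met that criterion. In CHLA-90 0 of 8 members met it, against 3.51% of all probes. Over both lines and both hairpins 0 of 8 did, against 1.29%.

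The hairpins themselves differed for LIN28B in CHLA-90. There shERK5-4 exceeded shERK5-5 by 1.20 ± 0.22 on the log2 scale (2.29-fold, limma adjusted p = 0.000247), with an interval from 0.742 to 1.65. In SK-N-BE(2) the difference was 0.27, with an interval from -0.188 to 0.722 (limma adjusted p = 0.463). The effect of shERK5-5 was 0.73 smaller on the log2 scale in CHLA-90 than in SK-N-BE(2), written as a change of -0.73 ± 0.31, which did not pass after adjustment (limma adjusted p = 0.191). The effect of shERK5-4 differed between the lines by 0.20 (limma adjusted p = 0.801).

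The group means of LIN28B, from high to low, were 10.41 ± 0.38 (SD) for SK-N-BE(2) with shERK5-4, 10.14 ± 0.18 with shERK5-5 and 9.14 ± 0.11 with shNSC. CHLA-90 followed at 9.04 ± 0.34 with shERK5-4, 7.84 ± 0.35 with shERK5-5 and 7.57 ± 0.27 with shNSC. The neighbours SK-N-BE(2) shERK5-4 and shERK5-5 did not differ beyond their spread, nor did CHLA-90 shERK5-5 and shNSC. The arrays of SK-N-BE(2) shNSC and CHLA-90 shERK5-4 overlapped, and that pair was not tested. This overlap and the order across lines are read from the values as deposited, which carry an offset between the lines. Under shNSC the LIN28B difference of CHLA-90 minus SK-N-BE(2) moved from -1.57 as deposited to -2.285 after median centring.

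**Figure D1:**
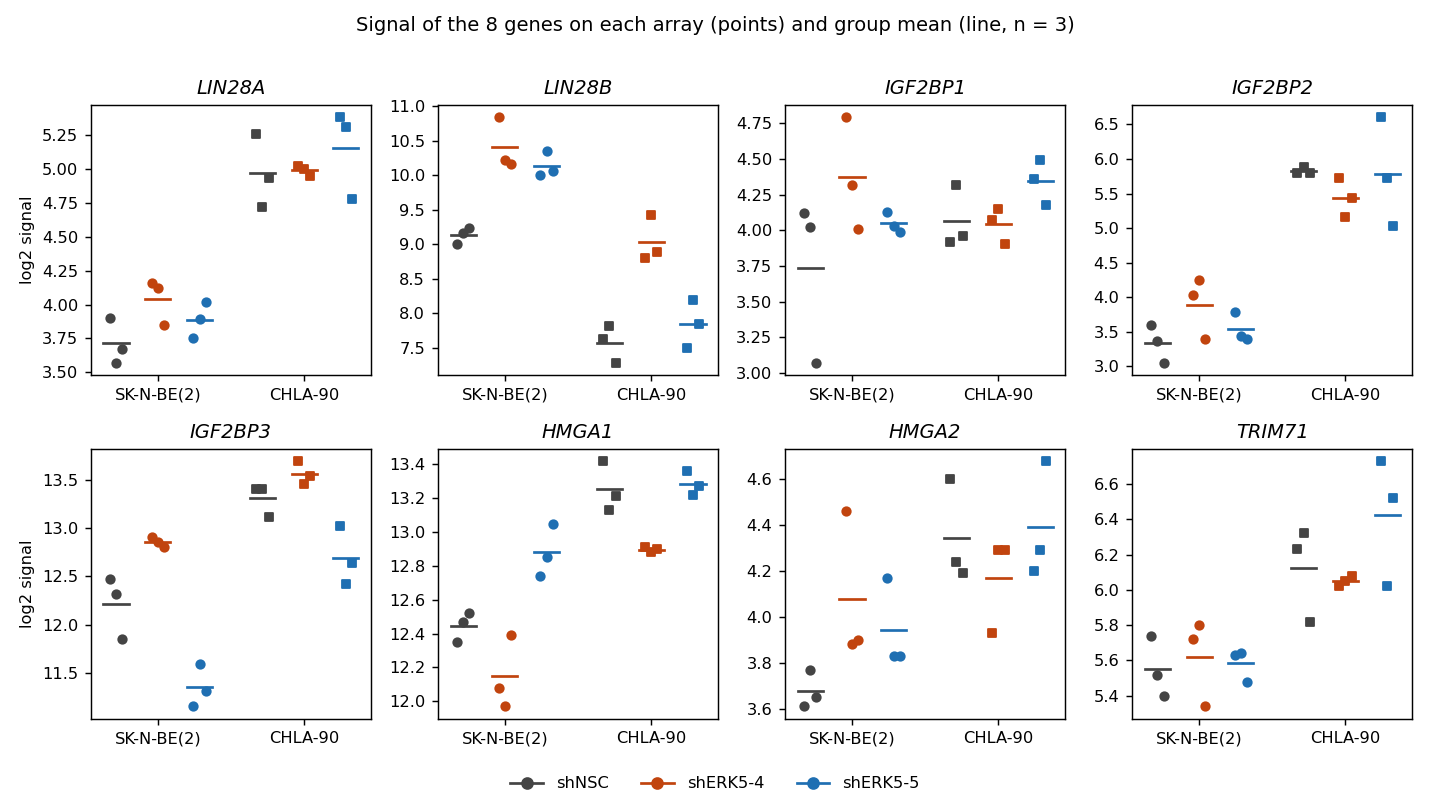
Log2 signal (y axis, a separate range for each gene) of the 8 genes in SK-N-BE(2) and CHLA-90 with shNSC, shERK5-4 or shERK5-5. Points are arrays and lines are means of 3 arrays. LIN28B is higher on every hairpin array than on every shNSC array in SK-N-BE(2), and IGF2BP3 is lowest with shERK5-5 in both lines.

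LIN28A, the paralog of pluripotent stem cells, stayed near the dim end of the array and was called in none of the hairpin contrasts. In SK-N-BE(2) its probe (TC0100007457.hg.1) read 3.90, 3.57 and 3.67 with shNSC, 4.16, 4.12 and 3.85 with shERK5-4, and 3.75, 3.89 and 4.02 with shERK5-5. In CHLA-90 it read 5.26, 4.72 and 4.93, then 5.02, 5.00 and 4.95, then 5.38, 5.31 and 4.78, in the same order. The groups of each line overlapped. Its log2 changes from shNSC were 0.33 and 0.17 in SK-N-BE(2) (limma adjusted p = 0.227 and 0.677) and 0.02 and 0.19 in CHLA-90 (0.967 and 0.573).

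IGF2BP3, an oncofetal RNA-binding protein that stabilises messenger RNAs, differed between the hairpins in both lines. In SK-N-BE(2) its probe (TC0700010463.hg.1) read 12.47, 12.32 and 11.85 with shNSC, 12.91, 12.86 and 12.81 with shERK5-4, and 11.15, 11.59 and 11.31 with shERK5-5. The 3 groups did not overlap, with shERK5-4 above and shERK5-5 below the controls. In CHLA-90 it read 13.41, 13.41 and 13.12 with shNSC, 13.70, 13.46 and 13.54 with shERK5-4, and 13.02, 12.42 and 12.64 with shERK5-5. The same order held there, again without overlap.

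Against shNSC, IGF2BP3 rose 1.57-fold with shERK5-4 in SK-N-BE(2), by 0.65 ± 0.19 on the log2 scale (limma adjusted p = 0.0133). Omission of shNSC replicate 3 ended this call (0.47, adjusted p = 0.11). With shERK5-5 it fell to 55.0% of the control, a log2 change of -0.86 ± 0.19 (limma adjusted p = 0.00264). In CHLA-90 the change with shERK5-4 was 0.25 (limma adjusted p = 0.431). With shERK5-5 it fell to 65.1% there, a change of -0.62 ± 0.19 (limma adjusted p = 0.0326). The CHLA-90 call was lost after quantile normalization (adjusted p = 0.0517) and when shNSC replicate 1 or 2 or shERK5-5 replicate 2 or 3 was left out. Across all single omissions that change ran from -0.78 to -0.48, with adjusted p between 0.0124 and 0.134.

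Compared directly, shERK5-4 exceeded shERK5-5 for IGF2BP3 by 1.51 ± 0.19 on the log2 scale in SK-N-BE(2), 2.85-fold (limma adjusted p = 1.53e-06), with an interval from 1.12 to 1.90. In CHLA-90 the difference was 0.87 ± 0.19, 1.83-fold (limma adjusted p = 0.00124), with an interval from 0.483 to 1.26. Averaged over the hairpins, IGF2BP3 stood at -0.11 in SK-N-BE(2) and -0.18 in CHLA-90, and neither passed the threshold.

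IGF2BP1, the paralog that binds MYC and ACTB messenger RNAs, had a low signal with a wide spread among its controls. In SK-N-BE(2) its probe (TC1700008186.hg.1) read 4.12, 4.02 and 3.07 with shNSC, 4.79, 4.32 and 4.01 with shERK5-4, and 4.13, 4.03 and 3.99 with shERK5-5. One control array, replicate 3, was far below the rest, and the groups overlapped. The change with shERK5-4 was 0.64 ± 0.23 on the log2 scale (limma adjusted p = 0.0492), and without that control array it was 0.30 (adjusted p = 0.38). It also missed the threshold when the SK-N-BE(2) arrays were fitted alone (adjusted p = 0.108), with trended and robust variances (0.0509), and without shERK5-4 replicate 1 (0.43, adjusted p = 0.245) or 2 (adjusted p = 0.0793). The other changes of IGF2BP1 were 0.31 with shERK5-5 in SK-N-BE(2), and -0.03 and 0.28 with shERK5-4 and shERK5-5 in CHLA-90, where the 9 arrays read 3.90 to 4.49.

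IGF2BP2, the paralog found in many adult tissues, was not called in a hairpin contrast. In SK-N-BE(2) its probe (TC0300013420.hg.1) read 3.60, 3.37 and 3.05 with shNSC, 4.03, 4.25 and 3.39 with shERK5-4, and 3.78, 3.44 and 3.39 with shERK5-5. In CHLA-90 it read 5.79, 5.89 and 5.80, then 5.72, 5.16 and 5.43, then 6.60, 5.73 and 5.03. The shERK5-4 arrays of CHLA-90 were all below their controls, while those of SK-N-BE(2) overlapped them. The log2 changes with shERK5-4 were 0.55 in SK-N-BE(2) (limma adjusted p = 0.189) and -0.39 in CHLA-90 (0.419), and those with shERK5-5 were 0.20 and -0.04, respectively.

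HMGA1, an architectural chromatin protein that binds AT-rich DNA, was lower with shERK5-4 than with shERK5-5 in SK-N-BE(2). Its probe (TC0600007748.hg.1) read 12.35, 12.47 and 12.52 with shNSC, 12.08, 11.97 and 12.39 with shERK5-4, and 12.74, 12.85 and 13.05 with shERK5-5. The arrays with shERK5-5 were above all others of the line. The difference of shERK5-4 minus shERK5-5 was -0.73 ± 0.16 on the log2 scale (limma adjusted p = 0.000872), with an interval from -1.06 to -0.411. Against shNSC the changes were -0.30 and 0.43 (limma adjusted p = 0.19 and 0.074), and the latter was called with trended and robust variance estimates (adjusted p = 0.0386).

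In CHLA-90 HMGA1 read 13.42, 13.13 and 13.21 with shNSC, 12.91, 12.88 and 12.90 with shERK5-4, and 13.36, 13.22 and 13.27 with shERK5-5. All shERK5-4 arrays were below the others. The difference between hairpins was -0.39, with an interval from -0.709 to -0.0647, and missed the threshold (limma adjusted p = 0.0691). It was called after quantile normalization (-0.45, limma adjusted p = 0.0301) and with trended and robust variance estimates (limma adjusted p = 0.0406). HMGA1 has processed pseudogenes, so its probe may also read RNA of these copies.

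HMGA2, the classical let-7 target of the set, stayed low in every group. In SK-N-BE(2) its probe (TC1200008041.hg.1) read 3.61, 3.77 and 3.65 with shNSC, 4.46, 3.88 and 3.90 with shERK5-4, and 4.17, 3.83 and 3.83 with shERK5-5. Each hairpin array was above each control array, yet the log2 changes of 0.40 and 0.27 did not pass (limma adjusted p = 0.148 and 0.48). In CHLA-90 the 9 arrays read 3.93 to 4.68 and the changes were -0.17 and 0.05 (limma adjusted p = 0.635 and 0.915).

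TRIM71, a ubiquitin ligase of stem cells and a conserved let-7 target, also passed in no hairpin contrast. Its probe (TC0300006982.hg.1) read 5.34 to 5.80 on the 9 SK-N-BE(2) arrays and 5.82 to 6.73 on the 9 CHLA-90 arrays. Its log2 changes from shNSC were 0.07 and 0.03 in SK-N-BE(2) (limma adjusted p = 0.87 and 0.963) and -0.07 and 0.30 in CHLA-90 (0.865 and 0.343).

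**Figure D2:**
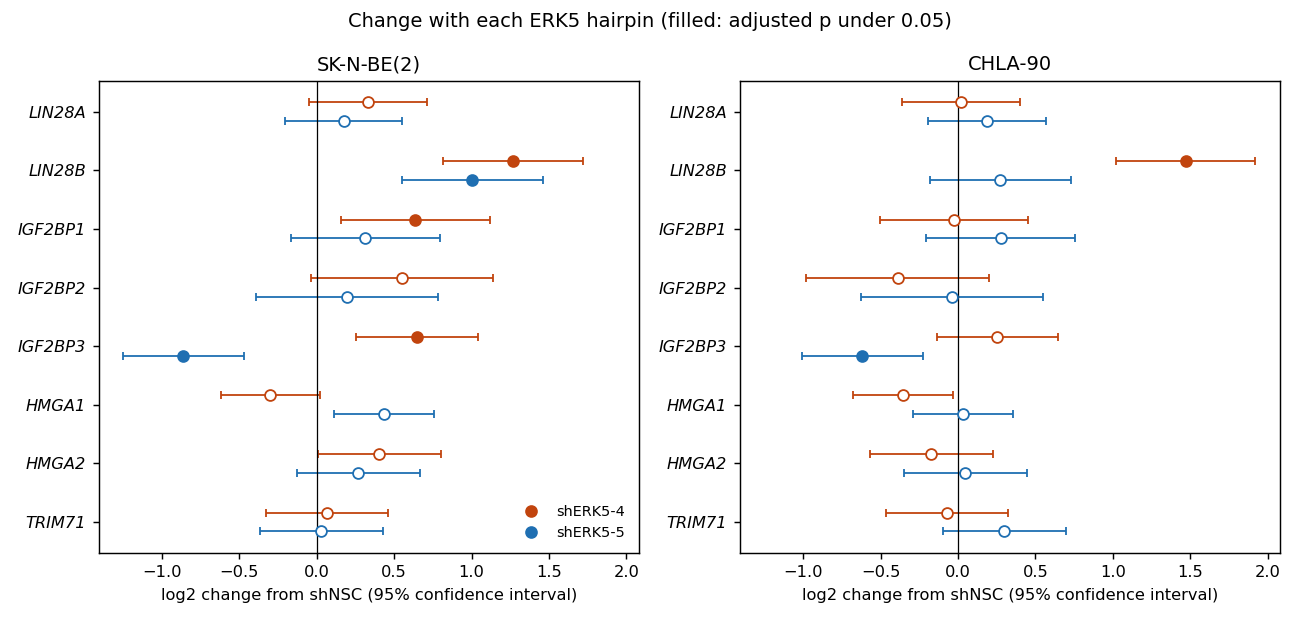
Log2 change from shNSC (x axis) of the 8 genes with shERK5-4 and shERK5-5 in SK-N-BE(2) and CHLA-90, with 95% confidence intervals of the limma model. Filled points have an adjusted p under 0.05. LIN28B is filled in 3 of its 4 comparisons, and IGF2BP3 lies on opposite sides of 0 for the hairpins.

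Counted over the set, 3 of 8 members (LIN28B, IGF2BP1, IGF2BP3) rose and 0 fell with shERK5-4 in SK-N-BE(2), where 12.2% of all probes rose and 11.7% fell. With shERK5-5 1 rose (LIN28B) and 1 fell (IGF2BP3), against 6.76% and 6.07% of all probes. In CHLA-90 1 rose (LIN28B) and 0 fell with shERK5-4, against 10% and 8.25%. With shERK5-5 0 rose and 1 fell (IGF2BP3), against 5.85% and 6.84%. The median log2 changes of the 8 members were 0.48, 0.23, -0.05 and 0.12 in these 4 comparisons, and those of all probes were 0.0133, -0.00333, 0.01 and 0.05. The comparisons within a line share their control arrays.

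For the mean of the hairpins, 1 of 8 rose and 0 fell in each line, LIN28B in both. Of all probes, 8.58% rose and 8.43% fell in SK-N-BE(2), and the shares for CHLA-90 were 5.57% and 6.29%. Between the hairpins, 1 member was higher with shERK5-4 (IGF2BP3) and 1 lower (HMGA1) in SK-N-BE(2), where 11.8% and 12.6% of all probes were. In CHLA-90 2 were higher (LIN28B and IGF2BP3) and 0 lower, against 14.8% and 12.4%.

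Separation of the raw values was common among all probes. Members whose shERK5-4 and shNSC arrays did not overlap numbered 3 of 8 in SK-N-BE(2), where 32.7% of all probes did not overlap, and 4 of 8 in CHLA-90, against 37.5%. For shERK5-5 the numbers were 4 of 8 in SK-N-BE(2), against 30.0%, and 1 of 8 in CHLA-90, against 26.8%. Between the hairpins 2 of 8 did not overlap in SK-N-BE(2), against 33.9%, and 4 of 8 in CHLA-90, against 39.7%. Counts of 1 to 4 among 8 genes lie on both sides of these shares, and nothing is read from them.

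**Figure D3:**
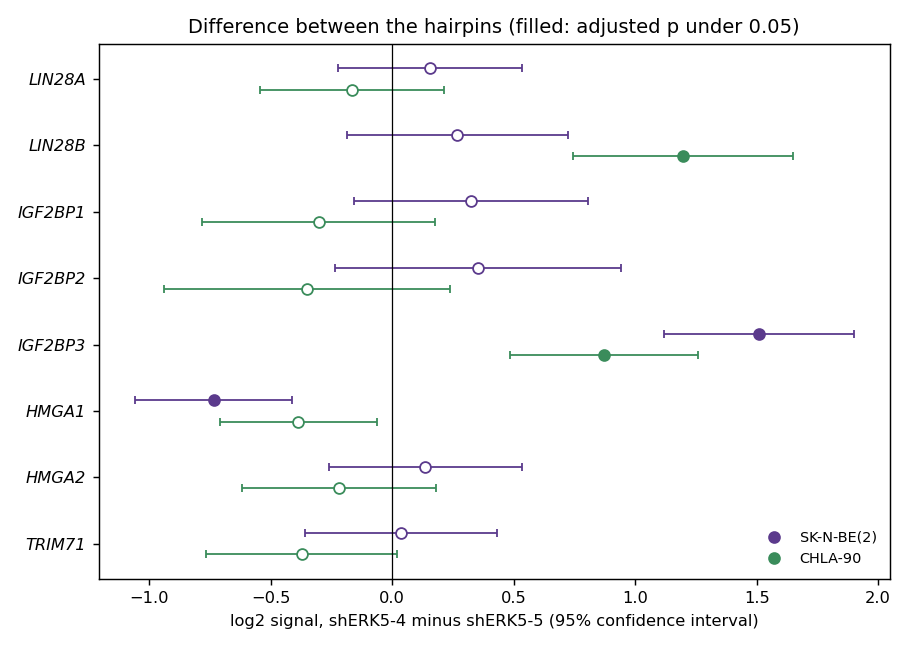
Difference of shERK5-4 minus shERK5-5 in log2 signal (x axis) for the 8 genes, with 95% confidence intervals, in SK-N-BE(2) and CHLA-90. Filled points have an adjusted p under 0.05. IGF2BP3 is filled in both lines, HMGA1 in SK-N-BE(2) and LIN28B in CHLA-90.

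The response of the members was also compared between the lines. For shERK5-4, for shERK5-5 and for their mean, 0 of 8 members differed between CHLA-90 and SK-N-BE(2) past the limma threshold, against 7.23%, 5.39% and 4.39% of all probes. At an unadjusted p under 0.05 the counts were 2, 1 and 0 of 8, against 19.5%, 19.6% and 16.8% of all probes. IGF2BP2 and HMGA2 were the 2 members for shERK5-4, with differences of -0.94 and -0.58 (limma adjusted p = 0.185 and 0.241).

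Under shNSC the lines differed in most of the 8 genes as deposited. The log2 signal in CHLA-90 was higher for 6 members and lower for 1 (LIN28B), while 48.4% of all probes were higher and 11.6% lower. The median difference of all probes was 0.453 as deposited, -0.265 after median centring and -0.0281 after quantile normalization. Directions for the members are therefore given under each scaling. LIN28B was lower in CHLA-90 by each, with differences of -1.57 ± 0.22 as deposited (33.8% of the SK-N-BE(2) level, limma adjusted p = 2.21e-06), -2.28 median centred and -2.17 quantile normalized.

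IGF2BP2 was higher in CHLA-90 under every scaling, by 2.49 ± 0.28 as deposited (limma adjusted p = 1.14e-07), 1.77 and 1.92. LIN28A was also higher under each, by 1.26, 0.54 and 0.69. No fold is given for either, since both were dim on the SK-N-BE(2) control arrays and the background of a probe is unknown. IGF2BP2 stood at percentile 19 and LIN28A at percentile 27.1 of the probe means of that group. IGF2BP3 was higher by 1.10 as deposited, by 0.38 after median centring, which did not pass (limma adjusted p = 0.0812), and by 0.77 after quantile normalization. HMGA1 followed the same course with 0.81, 0.09 (adjusted p = 0.647) and 0.48. HMGA2 was at 0.67, -0.052 and 0.14 and TRIM71 at 0.57, -0.15 and -0.14, and neither was called once the arrays were rescaled. IGF2BP1, at 0.33, -0.39 and -0.17, was not called under any of the 3 scalings. After median centring 2 of 8 members were higher and 1 lower, against 19.2% and 37.1% of all probes. After quantile normalization 4 were higher and 1 lower, against 23.6% and 24.6%.

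**Figure D4:**
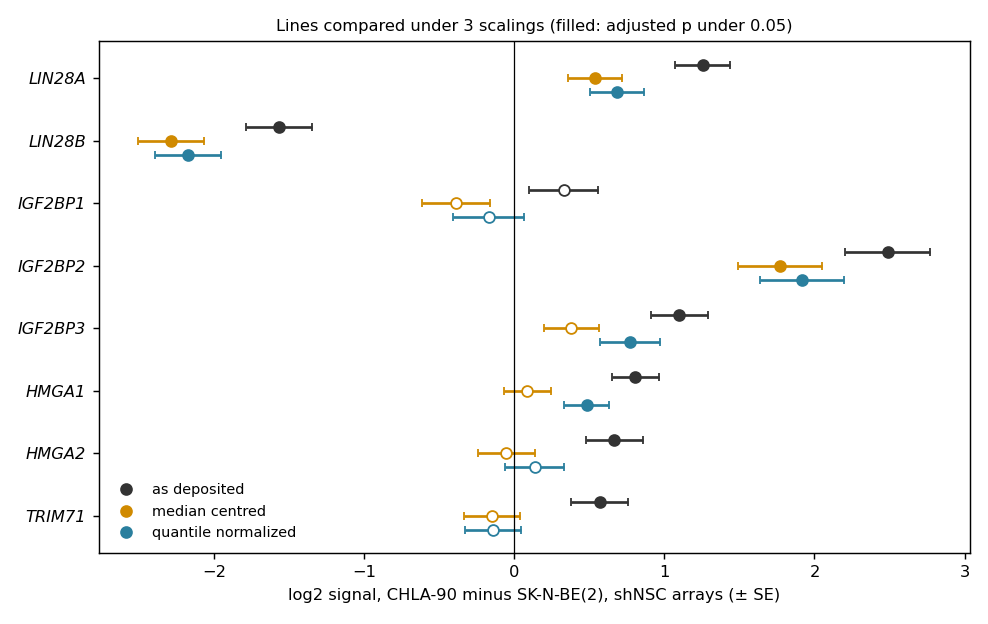
Difference of CHLA-90 minus SK-N-BE(2) in log2 signal (x axis) under shNSC for the 8 genes, as deposited, median centred and quantile normalized, with standard errors. Filled points have an adjusted p under 0.05. LIN28B lies below 0 and IGF2BP2 and LIN28A above 0 under every scaling, while HMGA2, TRIM71 and IGF2BP1 change sides.

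Genes whose signal most resembled that of LIN28B over the 18 arrays, after the mean of each line was subtracted, were CFAP36 (Pearson r = 0.942), AKIRIN1 (0.938) and SNRNP27 (0.935). For IGF2BP3 they were EXTL2 (0.949), DTWD2 (0.943) and CHML (0.938). For IGF2BP1 they were MPP1 (0.825), SPEF1 (0.823) and SPATA31A3 (0.819), with r of MPP1 falling to 0.511 within CHLA-90. The arrays of a group share their treatment, so these values are descriptions. LIN28B and IGF2BP3 correlated with each other at 0.236 on the same measure.

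RefSeq promoter windows of 250 bases before to 50 after a start site were searched for the letters CACGTG, the canonical E-box. Of the 5 members with a window, LIN28B and IGF2BP3 held it. The motif reads the same on both strands. It occurred in 2548 of 35116 such windows (7.26%) and in 2 of the 8 windows of 5 members. HMGA1, IGF2BP2, TRIM71 and the other start site of LIN28B had no match, and windows of LIN28A, IGF2BP1 and HMGA2 are not analysed here. The stretches below are on the gene's strand of GRCh38.p14, with CACGTG in capitals, 47 bases before a start of LIN28B (chr6:104957007-104957106, plus strand) and 174 and 146 bases before that of IGF2BP3 (chr7:23470599-23470698, minus strand).
LIN28B: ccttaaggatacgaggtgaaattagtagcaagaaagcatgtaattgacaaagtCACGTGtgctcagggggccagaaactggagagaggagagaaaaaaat
IGF2BP3: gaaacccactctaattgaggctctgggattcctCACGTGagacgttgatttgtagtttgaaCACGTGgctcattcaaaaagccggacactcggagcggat
A match says only that these letters occur there, and binding was not measured.

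The rest of the pathway was read through lists of genes around these members. Of 7 measured genes for let-7 decay and other let-7 binding proteins, 2 rose and 1 fell with shERK5-4 in each line, and 0 moved with shERK5-5 in either. The background shares are those given above for the 8 members. With shERK5-4 the called genes, named after their values were seen, were TUT7 (0.53 on the log2 scale, limma adjusted p = 0.0305), MSI1 (0.83, 0.00297) and HNRNPA1 (-0.42, 0.0419) in SK-N-BE(2). Those of CHLA-90 were TUT7 (0.59, 0.0226), DIS3L2 (0.65, 0.0368) and HNRNPA1 (-0.65, 0.00261). TUT4, the other uridylyltransferase, stood at -0.09 and 0.11 (adjusted p = 0.865 and 0.848).

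Of 10 measured genes of microRNA processing, 3 rose and 1 fell with shERK5-4 and 2 rose and 2 fell with shERK5-5 in SK-N-BE(2). In CHLA-90 1 rose and 0 fell with shERK5-4, and 2 rose and 1 fell with shERK5-5. XPO5, which exports precursors from the nucleus, fell in SK-N-BE(2) with values of -0.97 and -0.91 (limma adjusted p = 0.000117 and 0.000549). In CHLA-90 it stood at -0.18 with shERK5-4, without a call (adjusted p = 0.555), and at -0.55 with shERK5-5 (0.0345). AGO1 rose with shERK5-5 by 1.29 in SK-N-BE(2) and 1.25 in CHLA-90 (limma adjusted p = 7.9e-05 and 0.000185), AGO2 by 1.09 and 0.62 (0.000295 and 0.0345), and AGO4 rose with shERK5-4 by 1.37 and 0.91 (4.6e-06 and 0.000838). AGO3, added after its values were seen, fell with shERK5-5 in SK-N-BE(2) (-1.25, limma adjusted p = 1.28e-05) and was not called in the other 3 comparisons.

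Of the 19 listed let-7 host and precursor transcripts, 3 were measured, counting only probes with 1 symbol. In SK-N-BE(2) 1 rose and 0 fell with shERK5-4, and 0 rose and 2 fell with shERK5-5. In CHLA-90 0 rose and 1 fell with shERK5-4, and 0 moved with shERK5-5. MIR99AHG, the host of let-7c, stood at 0.43 and -0.85 with shERK5-4 and shERK5-5 in SK-N-BE(2) (limma adjusted p = 0.118 and 0.00327). In CHLA-90 it stood at -0.89 and -0.56 (0.00162 and 0.0547). HUWE1, the host of miR-98, was named after its values were seen and stood at 0.53 and -0.51 in SK-N-BE(2) (limma adjusted p = 0.013 and 0.028), and at 0.21 and -0.12 in CHLA-90 (0.413 and 0.685). A host transcript does not give the level of the mature microRNA.

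Among 45 measured genes reported or predicted as let-7 targets besides the 8 members, changes ran both ways. In SK-N-BE(2) 7 rose and 10 fell with shERK5-4, and 9 rose and 7 fell with shERK5-5. In CHLA-90 6 rose and 10 fell, then 5 rose and 6 fell. Of all probes, 12.2% rose and 11.7% fell with shERK5-4 in SK-N-BE(2), and 6.76% and 6.07% with shERK5-5. The shares in CHLA-90 were 10% and 8.25%, then 5.85% and 6.84%. Calls in either direction were thus more frequent in the list than among all probes in each comparison. The list was chosen with earlier results of these data known, and the excess was not tested. The medians of the list were -0.04, 0.06, 0.02 and 0.08 on the log2 scale, near those of all probes.

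ARID3A, a DNA-binding protein of stem cells, and CPEB2, a cytoplasmic polyadenylation factor, rose in all 4 comparisons. The changes of ARID3A were 1.92 and 0.91 for SK-N-BE(2) and 1.24 and 0.99 for CHLA-90, those of CPEB2 0.80, 0.68, 0.67 and 1.18 (limma adjusted p at most 0.0341). THBS1, the matrix protein thrombospondin, fell in all 4, with changes of -1.13 and -1.34 for SK-N-BE(2) and of -2.38 and -2.51 for CHLA-90. Of all probes, 1.29% were called in the same direction in all 4. CDK6, the cell cycle kinase, had values of -3.66 and -2.53 for SK-N-BE(2) and of -2.04 and -0.53 for CHLA-90, the last without a call (limma adjusted p = 0.0589). In the same order, PLAGL2 stood at 1.46, 1.72, 0.75 and 0.35, the last without a call (limma adjusted p = 0.3). BZW1 stood at -0.74, -1.99, -0.44 and -1.56, of which -0.44 was not called (adjusted p = 0.101). HAND1 stood at -1.09, 0.58, -3.24 and -1.94, of which 0.58 was not called (adjusted p = 0.236).

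MYCN, both a let-7 target and the oncogene tied to LIN28B in this tumour, had a mean log2 signal of 17.13 in SK-N-BE(2) and 8.80 in CHLA-90 under shNSC. In SK-N-BE(2) it fell by 2.02 with shERK5-4 and by 0.80 with shERK5-5 (limma adjusted p = 7.12e-09 and 0.00221). In CHLA-90 it changed by -1.89 with shERK5-4 and by 0.97 with shERK5-5 (limma adjusted p = 3.46e-08 and 0.000503). Of the 4 measured genes linked to LIN28B in neuroblastoma, 0 rose and 2 fell with each hairpin in SK-N-BE(2). In CHLA-90 0 rose and 1 fell with shERK5-4, and 1 rose and 1 fell with shERK5-5. AURKA, the mitotic kinase, had values of -1.28 and -1.01 for SK-N-BE(2) and of -0.40 and -1.34 for CHLA-90, the -0.40 not passing (limma adjusted p = 0.0957).

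Of 8 measured client transcripts of the IGF2BP proteins, 1 rose with shERK5-4 and 1 fell with shERK5-5 in each line. SRF, a transcription factor of growth and cytoskeletal genes, fell with shERK5-5 by 1.48 in SK-N-BE(2) and by 1.50 in CHLA-90 on the log2 scale (limma adjusted p = 2.71e-05 and 3.78e-05). With shERK5-4 it stood at 0.18 and 0.44, without a call. Of 7 measured pluripotency genes, 1 rose with shERK5-4 in each line and 0 moved with shERK5-5. The 1 was DNMT3B, a DNA methyltransferase, at 1.58 and 1.12 (limma adjusted p = 1.27e-06 and 0.000165).

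**Figure D5:**
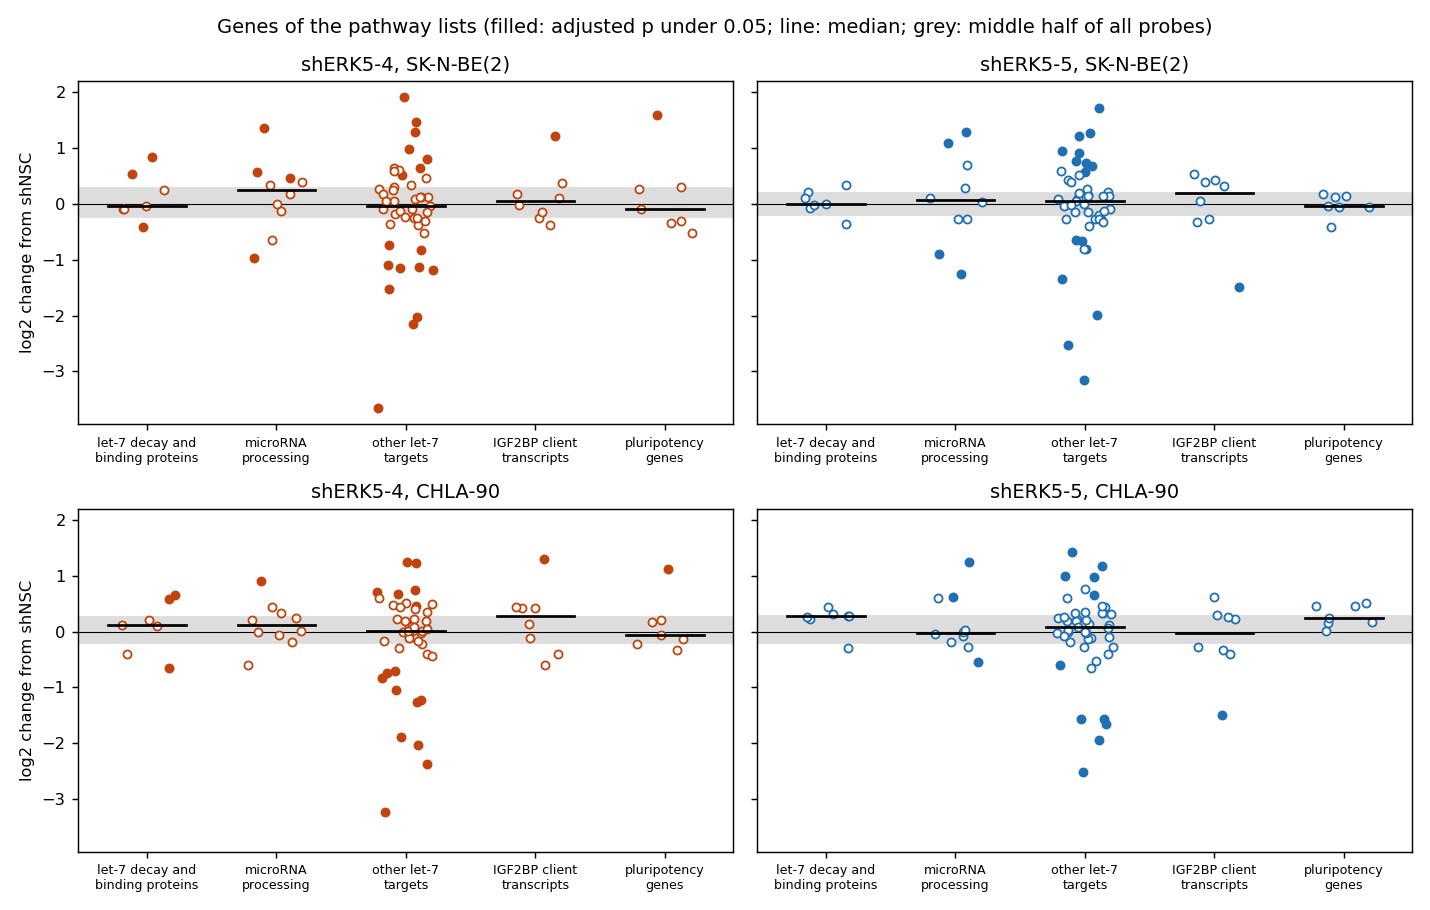
Log2 change from shNSC (y axis) of each measured gene in 5 pathway lists (x axis), one panel for each hairpin and line. Filled points have an adjusted p under 0.05, black lines are list medians and the grey band is the middle 50% of all probes. The medians of the 45 other let-7 targets lie between -0.04 and 0.08, with filled points on both sides of 0.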

How the data were processed

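The authors deposited 1 log2 signal per probe and array, already summarised. Their range points to log base 2. Summarisation, software and build were for this work not given in the sources used here, and each line may have been normalized apart. Array labelling used a GeneChip whole-transcript kit, per the labels' protocols. 0 value columns belonged to no sample. The array's probe table gave 17709 probes 1 symbol, and the other 3739 had none or more than 1. A gene counted as measured where a probe bore its symbol alone. A check by gene number against RefSeq changed 0 symbols.

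A model of 6 group means was fitted with limma 3.58.1 (R 4.3.3) to all 18 arrays and 21448 probes, with 12 residual and 9.588 prior degrees of freedom. There were 12 contrasts. Benjamini-Hochberg adjustment ran across every probe within a contrast, and an adjusted p under 0.05 was a call. LIN28B and MAPK7 also had the exact permutation test. The fit was tested on simulated data.

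The members and the gene lists, which come from general knowledge, were chosen with earlier results of these data known. Named are the members, MAPK7 and genes of a list called alike in all 4 single hairpin contrasts. Also named are up to 4 genes of a list with the smallest p among those called in the mean hairpin contrast of each line. The 3 genes most like each member called in a single hairpin contrast are named as well. Marker lists are given as counts or mean signals, with only PTPRC and S100B named. Genes said to be named or added after their values were seen, and TUT4, fall outside these rules. Likeness passed over small RNA genes, unnamed reading frames and non-coding genes with a locus name. Alternatives were median centring, quantile normalization, a filter at the 25th percentile, a replicate block, fits to 1 line, trended and robust variances, a 1.5-fold minimum, a threshold of 0.01, the mean of a gene's probes, and leaving out each array. Figures were drawn with matplotlib 3.10.9.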

Additional observations from a re-analysis of the deposited data

Results flagged for a closer look

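For IGF2BP2 the shERK5-4 arrays all lay above the shNSC mean in SK-N-BE(2) and all below it in CHLA-90. Neither change was called (0.55 and -0.39, limma adjusted p = 0.189 and 0.419), and the SK-N-BE(2) arrays overlapped their controls at a dim signal. The difference between the effects was -0.94 on the log2 scale and did not pass (limma adjusted p = 0.185).

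For HMGA2 the shERK5-4 arrays lay on the same opposite sides of the shNSC means. Neither change was called (0.40 and -0.17, limma adjusted p = 0.148 and 0.635), and the CHLA-90 arrays overlapped their controls. The difference between the effects was -0.58 and did not pass (limma adjusted p = 0.241).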

How the results depend on the processing

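Each alternative was run, and contrasts between lines have no fit to 1 line. LIN28B kept its 3 calls in all of them. Under shNSC, median centring left 3 members called between the lines, with HMGA2 at -0.052 and TRIM71 at -0.15, and TRIM71 was at -0.14 after quantile normalization. With shERK5-5 in CHLA-90, 0 members were called after quantile normalization or at a threshold of 0.01, at which 1 remained with shERK5-4 in SK-N-BE(2). Leaving out 1 array gave 1 to 3 calls with shERK5-4 in SK-N-BE(2), 1 only without shNSC replicate 3, and 0 to 1 with shERK5-5 in CHLA-90. In the exact tests, the mean hairpin change of MAPK7 then ran from -0.83 to -0.56 in SK-N-BE(2) and from -1.11 to -0.92 in CHLA-90, and that of LIN28B from 1.02 to 1.19 and from 0.67 to 1.06. Omitting a control array leaves a smallest exact p of 0.0714, so those tests cannot pass. Equal replicate numbers were not used to pair the arrays in the main fit. Deviations of same-numbered arrays correlated from -0.126 to 0.204 in SK-N-BE(2), and those of different-numbered arrays from -0.23 to 0.24. In CHLA-90 the ranges were -0.056 to 0.204 and -0.194 to 0.103, so the same-numbered range lay higher there. The labels do not say whether equal numbers mark a shared batch. With a replicate block 2 members were called for the mean of the hairpins in SK-N-BE(2), IGF2BP1 at 0.47 joining LIN28B (limma adjusted p = 0.0447). Of the single-gene values for the members and MAPK7, 913 stayed called or uncalled as before under the settings other than omissions. Where such a value changed sign, it was uncalled and its shift did not exceed the SD within groups. Of the rest, 14 lost a call, 4 gained a call, and 3 reversed. A further 2, uncalled, changed sign with a shift beyond that SD. When 1 array was left out, 896 stayed on the same terms, 17 lost a call, 2 gained a call, and 3 changed sign beyond that SD without a call.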
